A study of Mus musculus with 12 samples.

Results

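The glucocorticoid-responsive genes are 10 genes that were taken by symbol from a deposited expression table of 55414 mouse genes. They comprise the glucocorticoid receptor Nr3c1, the corticosteroid-activating enzyme Hsd11b1, and 8 genes whose transcription glucocorticoids are known to induce, namely Tsc22d3, Dusp1, Fkbp5, Zbtb16, Sgk1, Anxa1, Mt1 and Mt2. All 10 were found in the table and all 10 were expressed highly enough to be tested. Whole-lung RNA was sequenced from 12 mice with acute lung injury, a model induced by lipopolysaccharide (LPS), a component of the bacterial cell wall. All 12 mice were on a C57BL/6J background, received LPS through the nose, and were analyzed on day 4. In the 6 IL-10 B-KO mice, a floxed Il10 gene was deleted by Mb1-Cre, which is driven by the B cell gene Cd79a. The other 6 were IL-10 B-WT mice, referred to as controls, for which the sources used here give no alleles. Neither age nor sex was given, and all lungs were exposed, so that the values hold no unexposed baseline.

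Glucocorticoids are steroid hormones of the adrenal cortex, corticosterone being the main one in mice. Inside the cell they bind the receptor NR3C1, which is held by HSP90 and its co-chaperones, and the bound receptor enters the nucleus, where it induces genes through glucocorticoid response elements and represses inflammatory genes driven by NF-κB and AP-1. In the lung the hormone restrains inflammation and promotes surfactant production, and several of the genes it induces, such as Fkbp5 and the metallothioneins, also respond to stress, cytokines or metals.

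The promoters of Mt1 and Mt2 are shown because these neighbouring genes varied together across the lungs more closely than any other pair of the 10. Both lie on the plus strand of chromosome 8, 5513 bases apart, and encode metallothioneins, small proteins that bind zinc and copper. The sequences are from RefSeq on GRCm38.p6 and run from 250 bases before each start site to 30 bases after it, at chr8:94172368-94172647 for Mt2 and chr8:94178839-94179118 for Mt1. Capitals mark matches to the core of the metal response element, the site of the zinc-sensing factor MTF1, searched as TGCGCNC or TGCACNC on both strands.
Mt2: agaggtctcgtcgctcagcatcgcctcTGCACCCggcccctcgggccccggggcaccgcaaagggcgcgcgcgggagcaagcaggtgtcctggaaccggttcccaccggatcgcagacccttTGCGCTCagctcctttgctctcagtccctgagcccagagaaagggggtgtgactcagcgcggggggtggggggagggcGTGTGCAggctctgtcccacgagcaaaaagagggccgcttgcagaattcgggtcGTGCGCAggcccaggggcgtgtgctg
Mt1: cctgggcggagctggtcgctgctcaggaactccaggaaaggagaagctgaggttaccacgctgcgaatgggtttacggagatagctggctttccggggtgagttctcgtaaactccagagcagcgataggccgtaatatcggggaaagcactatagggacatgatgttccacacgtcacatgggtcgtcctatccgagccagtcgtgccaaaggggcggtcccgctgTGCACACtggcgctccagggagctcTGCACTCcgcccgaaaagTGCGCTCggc
The Mt2 sequence held 4 matches that did not overlap, 2 on each strand. They began 223, 128 and 50 bases before the annotated start site and 4 bases after it. The Mt1 sequence held 3, all on the plus strand, which began 23 bases before the annotated start site and 2 and 20 bases after it. These counts and distances hold for the RefSeq start sites only, which differ from the GENCODE gene starts given below for both genes. Whether the lung uses other start sites was not tested. Among 32851 mouse promoter windows of 300 bases, 25.7% held at least 1 match, 1.97% at least 3 and 0.517% at least 4. The core of the glucocorticoid response element, searched as ACANNNTGT, occurred in 6.85% of the windows. It had 1 match in the Mt1 window, 92 bases before the start site, and was in 2 of the 6 windows of Sgk1. The letters were not found in the windows of Mt2, Fkbp5, Tsc22d3, Dusp1, Anxa1 or Hsd11b1, which says nothing of sites elsewhere. The cAMP response element TGACGTCA, present in 1.79% of the windows, had 1 match in the Dusp1 window, 143 bases before its start site. Windows were given for 8 of the 10 genes, and Nr3c1 and Zbtb16 are named only.

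Expression was deposited as TPM (transcripts in relation to a fixed library total, corrected for gene length). How many reads stand behind a value is therefore unknown. Il10 itself was between 0 and 0.88 TPM in control lungs and between 0 and 0.58 TPM in the IL-10 B-KO group (two-sided exact permutation p = 0.745, n = 6 each), too low to check the deletion in whole lung. The alveolar type 2 marker genes, such as the surfactant gene Sftpc, summed to between 3304 and 21736 TPM, so that lung epithelium was present in every library. The share of TPM from immunoglobulin genes was 0.248% to 15.4% in control lungs and 0.002% to 0.0647% in the IL-10 B-KO group. The B cell gene Cd79a was at 0 or 0.05 TPM in 4 lungs of the IL-10 B-KO group and at 4.35 and 5.73 TPM in replicates 2 and 6. Summed B cell markers were 66.05 to 795 TPM (median 75.8) in controls, against 5.21 to 74.5 TPM (median 9.1) in the IL-10 B-KO group. The genotypes therefore differed in B cell RNA as well. Among control lungs, replicate 1 stood apart, with 2479 TPM of summed neutrophil markers against 275.6 to 1092 TPM in the other 5. Control replicate 5 stood apart as well, with the fewest genes above 0 TPM (21380), the lowest alveolar type 2 sum (3304 TPM, against 8978 TPM or more in the other lungs) and the highest sum of erythroid markers (96325 TPM). It was the lowest control lung for 7 of the 10 genes, namely Nr3c1, Hsd11b1, Dusp1, Fkbp5, Sgk1, Anxa1 and Mt2.

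The glucocorticoid-responsive genes had log2 fold changes on both sides of 0, with 6 positive and 4 negative. Fkbp5, Mt1, Mt2, Anxa1 and Zbtb16 had higher levels in the IL-10 B-KO group, Nr3c1 and Hsd11b1 had lower levels, and Tsc22d3, Dusp1 and Sgk1 were less separated between the genotypes. With limma over 15148 genes, 0 of the 10 passed the threshold, an adjusted p of at most 0.05 (Benjamini-Hochberg) and a log2 fold change of 1 or more in size. Of all genes tested, 0.495% passed it, 0.0264% higher and 0.469% lower. At an unadjusted p of at most 0.05, 7 of the 10 differed, 5 of them higher and 2 lower, where 12.5% of all genes tested differed (6.83% higher and 5.71% lower). The median log2 fold change of the 10 was 0.78 on the log2(TPM + 1) scale, and that of all genes tested was 0.10. The 10 genes were chosen with earlier results of these data known, so that neither the count nor the median tests for an excess. Fkbp5, Anxa1, Mt1 and Mt2 also varied together across the lungs and do not count as separate results. In controls the order of levels by median was Tsc22d3, Mt1, Dusp1, Hsd11b1, Anxa1, Sgk1, Mt2, Nr3c1, Fkbp5 and Zbtb16, and the ranges of neighbours in that order overlapped except between Mt2 and Nr3c1. In the IL-10 B-KO group the order was Mt1, Anxa1, Mt2, Tsc22d3, Sgk1, Dusp1, Hsd11b1, Fkbp5, Nr3c1 and Zbtb16, and the ranges of all neighbours overlapped. Adjusted p-values of the 10 lay between 0.154 for Fkbp5 and 0.517 for Tsc22d3. Without control replicate 1 the log2 fold changes ran from -0.95 for Hsd11b1 to 2.53 for Mt2, and Fkbp5 and Anxa1 passed the threshold. Of the 14943 genes tested in that fit, 576 passed it. Control replicate 1 was the highest control for Fkbp5 and Anxa1, so that its removal was bound to enlarge their differences. Without control replicate 5 the log2 fold changes of the 10 ran from -1.03 to 2.09, again for Hsd11b1 and Mt2. Without IL-10 B-KO replicates 2 and 6 they ran from -0.68 to 2.80, for the same 2 genes. In limma 0 of the 10 passed the threshold in either, while 8 and 7 of the 10 differed at an unadjusted p of at most 0.05. Of all 15051 genes tested without control replicate 5, 480 were higher and 1206 lower at that p. Of all 14843 tested without IL-10 B-KO replicates 2 and 6, 1368 were higher and 856 lower. Since these are whole lungs, a change in the number of cells that express a gene and a change in RNA per cell cannot be told apart.

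**Figure D1:**
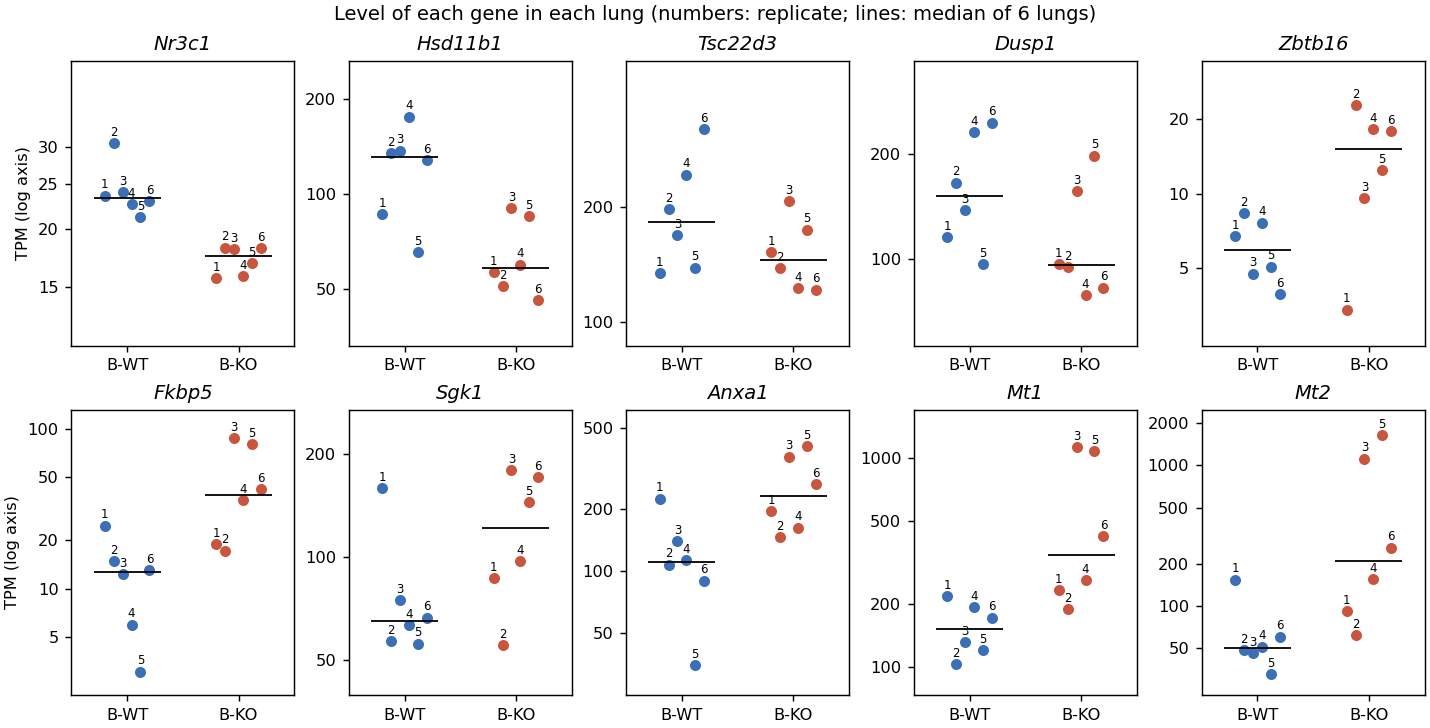
Level of each of the 10 genes in TPM (log axis) in the 6 IL-10 B-WT (blue) and 6 IL-10 B-KO (red) lungs. Points are single lungs numbered by replicate and lines are medians. The 2 genotypes are fully separated for Nr3c1 alone, and IL-10 B-KO replicates 3 and 5 are the highest points for Mt1, Mt2, Fkbp5 and Anxa1.

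Nr3c1 (ENSMUSG00000024431, chromosome 18, 39410545 to 39519421, minus strand) encodes the glucocorticoid receptor itself. It ranged from 21.2 to 30.6 TPM (median 23.2) in control lungs, against 15.6 to 18.2 TPM (median 17.4) in the IL-10 B-KO group. Each of the 6 IL-10 B-KO lungs lay under the lowest control lung, and none of the other 9 genes separated the genotypes. Of all genes tested, 1.02% did so, 0.0924% higher and 0.924% lower in the IL-10 B-KO group. The means were 24.1 ± 3.32 and 17.1 ± 1.19 TPM (SD, n = 6 each), 1.41-fold apart, with the smallest p the exact permutation test can give in this design (two-sided, 0.00216). The log2 fold change was -0.47 (standard error 0.13, 95% interval -0.74 to -0.19), and the limma adjusted p was 0.161. It was also the steadiest of the 10, with coefficients of variation of 13.8% and 6.94%. Leaving out IL-10 B-KO replicates 3 and 5 gave a log2 fold change of -0.48 (limma adjusted p = 0.557). Leaving out control replicate 2, the highest control, gave -0.40 (limma adjusted p = 0.366). The chaperones and coregulators that hold and serve the receptor, among them HSP90 and the nuclear receptor coactivators, were measured in 15 of 15 genes. Of these, 0 passed the threshold and 0 differed at an unadjusted p of at most 0.05 in limma, with a median log2 fold change of 0.12. In this list Hspa8 had the lowest unadjusted p among the higher genes, with a log2 fold change of 0.51, and Crebbp among the lower genes, with -0.28.

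Hsd11b1 (ENSMUSG00000016194, chromosome 1, 193221634 to 193264075, minus strand) encodes the enzyme that regenerates active corticosterone from its inert 11-keto form within tissues. Its level was 65.2 to 175 TPM (median 131) in control lungs, against 46.1 to 89.8 TPM (median 58.0) in the IL-10 B-KO group. In the IL-10 B-KO group 4 lungs lay under the lowest control, and replicates 3 and 5 overlapped control replicates 1 and 5. The mean was 121 ± 39.4 TPM in controls and 64.6 ± 18.2 TPM in the IL-10 B-KO group (SD, n = 6 each, two-sided exact permutation p = 0.0108), a 1.87-fold lower level. On the log2 scale the fold change was -0.87 (standard error 0.25, adjusted p = 0.190 in limma). It was -1.10 without the overlapping IL-10 B-KO replicates 3 and 5 (limma adjusted p = 0.214), whose removal was bound to enlarge the difference, and -0.68 without replicates 2 and 6 (adjusted p = 0.288).

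Hsd11b2, which encodes the opposing enzyme that inactivates corticosterone, was low throughout, at 1.36 to 5.39 TPM in controls, against 1.69 to 8.05 TPM in the IL-10 B-KO group. It had a log2 fold change of 0.67 (limma adjusted p = 0.383) and did not separate the genotypes. The ratio of Hsd11b1 to Hsd11b2 within a lung, computed after the values were seen, had a median of 62.7 in controls and 14.4 in the IL-10 B-KO group. The difference in log2 ratio was -1.77 (two-sided exact permutation p = 0.00866, 0.0130 adjusted over 3 such ratios), and 3 IL-10 B-KO lungs lay under the lowest control. Leaving out each lung in turn gave -2.12 to -1.52. Since the 2 genes were already seen to have opposite directions, their ratio was bound to differ, and the adjustment does not cover that choice of pair. The other genes of steroid handling held the mineralocorticoid receptor Nr3c2, with a log2 fold change of -0.33, and the steroid exporter Abcb1b, with 0.58. Of the 8 listed genes 7 were tested, 0 passed the threshold, and Hsd11b2 alone differed at an unadjusted p of at most 0.05. At that p, 12.5% of all genes tested differed.

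**Figure D2:**
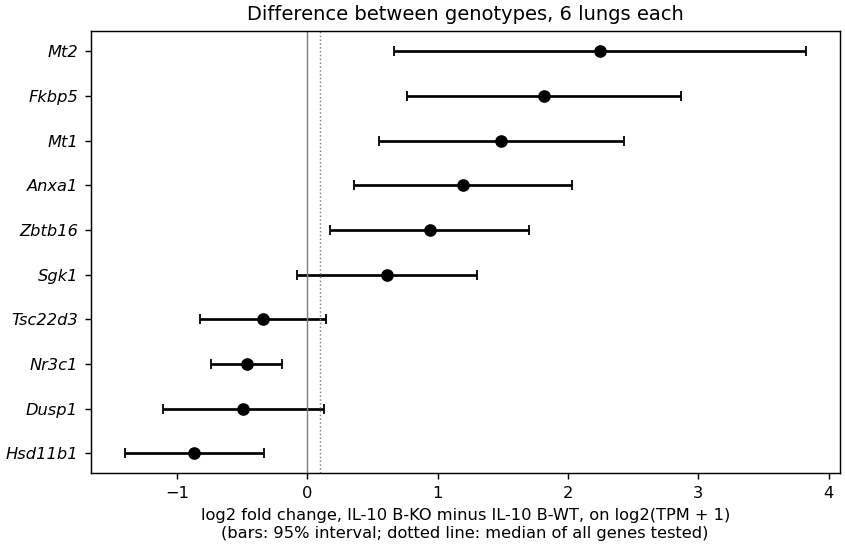
Log2 fold change of each of the 10 genes (IL-10 B-KO minus IL-10 B-WT, log2(TPM + 1) scale) with its 95% interval from limma, 6 lungs per genotype. The dotted line is the median of all genes tested (0.10). The intervals of Tsc22d3, Dusp1 and Sgk1 include 0, Mt2 has the widest interval (0.67 to 3.82) and Nr3c1 the narrowest (-0.74 to -0.19).

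Tsc22d3 (ENSMUSG00000031431, chromosome X, 140539528 to 140600659, minus strand) encodes GILZ, a leucine zipper protein that restrains NF-κB and AP-1 and is among the most direct targets of the receptor. It was at 134 to 318 TPM (median 183) in control lungs, against 122 to 207 TPM (median 145) in the IL-10 B-KO group. Most IL-10 B-KO lungs lay within the control range, and replicates 4 and 6 were below it. The log2 fold change was -0.34, with a 95% interval from -0.83 to 0.14 (limma adjusted p = 0.517, two-sided exact permutation p = 0.165). It depended on the highest control lung and on the scaling, at -0.19 without control replicate 6, -0.54 with quantile normalization and -0.56 with array quality weights (limma adjusted p = 0.757, 0.257 and 0.112).

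Dusp1 (ENSMUSG00000024190, chromosome 17, 26505590 to 26562128, minus strand) encodes the phosphatase MKP-1, which switches off p38 and JNK signaling. Levels were 96.8 to 246 TPM (median 152) in controls, against 78.9 to 198 TPM (median 95.8) in the IL-10 B-KO group. In the IL-10 B-KO group replicates 3 and 5 were at 157 and 198 TPM and the other 4 were between 78.9 and 96.8 TPM, where a single control lung, replicate 5, was also found. The log2 fold change was -0.49 (95% interval -1.10 to 0.12, limma adjusted p = 0.477). It was -0.82 without IL-10 B-KO replicates 3 and 5, the highest lungs of that group (adjusted p = 0.539), -0.33 without replicates 2 and 6 (adjusted p = 0.632) and -0.77 with array quality weights (adjusted p = 0.0860). Its exons overlap those of Ergic1 on the opposite strand, and whether the reads were counted by strand is not given in the sources used here.

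Fkbp5 (ENSMUSG00000024222, chromosome 17, 28399094 to 28517527, minus strand) encodes the co-chaperone FKBP51, which lowers the receptor's affinity for hormone and so forms a feedback loop. Its values were 3.03 to 24.8 TPM (median 12.7) in control lungs, against 17.3 to 87.1 TPM (median 38.7) in the IL-10 B-KO group. All 6 IL-10 B-KO lungs were above the control median and 4 were above every control lung. IL-10 B-KO replicates 3 and 5 were the highest at 87.1 and 79.9 TPM, and control replicate 1 was the highest control. The mean was 12.4 ± 7.61 TPM in controls and 46.8 ± 30.03 TPM in the IL-10 B-KO group (SD, n = 6 each, two-sided exact permutation p = 0.00866), a 3.79-fold higher level. On the log2 scale the fold change was 1.81 (standard error 0.49, adjusted p = 0.154 in limma). It was 2.05 without control replicate 1, with a limma adjusted p of 0.0385 that passed the threshold, and 1.27 without IL-10 B-KO replicates 3 and 5, with an adjusted p of 0.727.

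Fkbp5 and Tsc22d3, both induced through the receptor, were also set against each other. Within single lungs the ratio of Fkbp5 to Tsc22d3 TPM, also computed after the values were seen, had a median of 0.0572 in control lungs and 0.317 in the IL-10 B-KO group. The difference in log2 ratio was 2.28 (two-sided exact permutation p = 0.00649, 0.0130 adjusted over the 3 ratios), and 4 IL-10 B-KO lungs were above every control lung. Leaving out each lung in turn gave 2.02 to 2.64. Since Fkbp5 was already seen to be higher and Tsc22d3 lower in the IL-10 B-KO group, their ratio was bound to be higher there. The adjustment over 3 ratios does not cover that choice of pair. Control replicate 1, at 0.185, was above IL-10 B-KO replicates 1 and 2, at 0.124 and 0.125.

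**Figure D3:**
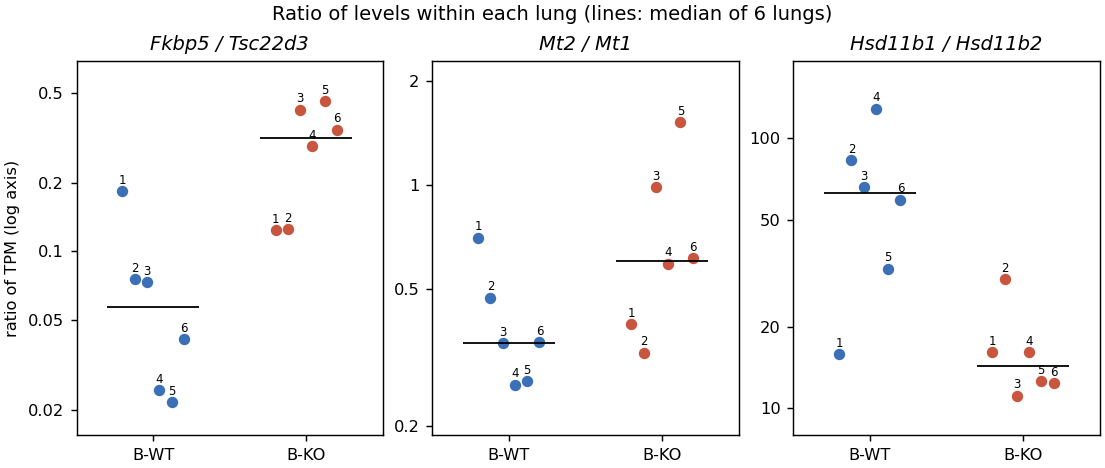
Ratio of TPM (log axis) of Fkbp5 to Tsc22d3, Mt2 to Mt1 and Hsd11b1 to Hsd11b2 within each lung, points numbered by replicate and lines at the medians, IL-10 B-WT in blue and IL-10 B-KO in red. The Fkbp5 to Tsc22d3 medians are 0.0572 and 0.317 and the Hsd11b1 to Hsd11b2 medians are 62.7 and 14.4, and IL-10 B-WT replicate 1 lies within the IL-10 B-KO range in each panel.

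Zbtb16 (ENSMUSG00000066687, chromosome 9, 48654297 to 48836222, minus strand) encodes the zinc finger repressor PLZF, which is induced by glucocorticoids in many tissues and also marks innate-like T cells. It was the lowest expressed of the 10 in both genotypes, at 3.95 to 8.33 TPM (median 5.92) in controls, against 3.41 to 22.9 TPM (median 15.1) in the IL-10 B-KO group. Replicates 2 to 6 of the IL-10 B-KO group were above every control lung, while replicate 1 was below them all. The log2 fold change was 0.94 (standard error 0.35, adjusted p = 0.330 in limma, two-sided exact permutation p = 0.0390). It was 0.60 without IL-10 B-KO replicates 2 and 6 (limma unadjusted p = 0.125, adjusted p = 0.429). Summed T and NK cell markers were 32.2 to 151 TPM in controls, against 41.8 to 208 TPM in the IL-10 B-KO group, with 0 of 8 differing at an unadjusted limma p of at most 0.05 and 0 past the threshold. The part of T cells in the level of Zbtb16 was not tested.

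Sgk1 (ENSMUSG00000019970, chromosome 10, 21882184 to 21999903, plus strand) encodes a kinase that raises sodium channel activity in epithelia, a route by which alveolar fluid is cleared. Levels were 55.9 to 159 TPM (median 64.9) in controls, against 55.3 to 179 TPM (median 121) in the IL-10 B-KO group. The control group was tight between 55.9 and 74.9 TPM except for replicate 1 at 159 TPM, and 2 IL-10 B-KO lungs were above that. Its log2 fold change was 0.61 (95% interval -0.08 to 1.30, limma adjusted p = 0.444). It was 0.83 without control replicate 1 (adjusted p = 0.0906) and 0.36 without IL-10 B-KO replicates 3 and 5 (adjusted p = 0.999).

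Anxa1 (ENSMUSG00000024659, chromosome 19, 20373428 to 20390944, minus strand) encodes annexin A1, a calcium-dependent phospholipid-binding protein, abundant in neutrophils and macrophages, that limits neutrophil entry and promotes resolution of inflammation through formyl peptide receptors. It ranged from 35.2 to 226 TPM (median 111) in controls, against 147 to 405 TPM (median 231) in the IL-10 B-KO group. Replicates 3, 5 and 6 of the IL-10 B-KO group were above all controls, and the other 3 lay above every control except replicate 1. The log2 fold change was 1.19 (standard error 0.39, adjusted p = 0.278 in limma, two-sided exact permutation p = 0.0173), with means of 119 ± 63.0 and 257 ± 107 TPM (SD, n = 6 each). Without control replicate 1 it was 1.41 and passed the threshold (limma adjusted p = 0.0454), and without IL-10 B-KO replicates 3 and 5 it was 0.85 (adjusted p = 0.999).

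The other genes of the family around annexin A1 mostly had positive values. Of 14 tested annexins, formyl peptide receptors and S100 partners, 0 passed the threshold and 6 differed at an unadjusted p of at most 0.05, all higher, with a median log2 fold change of 0.46. Of all genes tested, 12.5% differed at that p, and 6.83% were higher. S100a10, which binds annexin A2, had a log2 fold change of 0.87 and S100a6 of 1.21, while Anxa8, at -0.18, was the only gene of the list with a negative value. The receptor genes Fpr1 and Fpr2, named here after their values were seen, had log2 fold changes of 1.83 and 2.07 and are carried mainly by neutrophils and monocytes.

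Mt1 (ENSMUSG00000031765, chromosome 8, 94179082 to 94180327, plus strand), whose promoter is printed above, was at 103 to 219 TPM (median 152) in controls, against 189.9 to 1130.1 TPM (median 343) in the IL-10 B-KO group. IL-10 B-KO replicates 3 and 5 were at 1130.1 and 1081 TPM, and the other 4 were between 189.9 and 424 TPM. All but replicate 2 were above every control lung. The means were 157 ± 45.4 and 553 ± 435 TPM (SD, n = 6 each, two-sided exact permutation p = 0.00649), and the log2 fold change was 1.49 (standard error 0.44, adjusted p = 0.206 in limma).

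Mt2 (ENSMUSG00000031762, chromosome 8, 94172664 to 94173568, plus strand) was at 32.6 to 154 TPM (median 50.01) in controls, against 62.2 to 1649.5 TPM (median 208) in the IL-10 B-KO group. Replicates 3 and 5 of the IL-10 B-KO group, at 1118 and 1649.5 TPM, stood far above the rest, and control replicate 1 at 154 TPM was the highest control. The log2 fold change of 2.25 was the largest of the 10 and the least precise (standard error 0.73, adjusted p = 0.279 in limma, two-sided exact permutation p = 0.0152). Without replicates 3 and 5 the log2 fold changes were 0.80 for Mt1 and 1.10 for Mt2, with limma adjusted p-values of 0.617 and 0.866. Without control replicate 1 they were 1.59 and 2.53, with adjusted p-values of 0.0601 and 0.0637.

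Mt2 was below Mt1 in all 6 control lungs, with a median ratio of 0.349, and above it in IL-10 B-KO replicate 5 alone, where the ratio was 1.53. The median ratio in the IL-10 B-KO group was 0.604, and the difference in log2 ratio of 0.77 did not pass 0.05 (two-sided exact permutation p = 0.0844). The coding sequences of Mt1 and Mt2 are alike, so that some reads may have been divided between them by RSEM, and the exons of Mt2 overlap those of Gm45774 on the opposite strand. The other metallothioneins and genes of zinc sensing and transport gave 6 of 7 tested genes, of which 0 passed the threshold and 0 differed at an unadjusted p of at most 0.05 in limma. Their median log2 fold change was 0.06, with the zinc importer Slc39a8 at 0.69 and Mt3 at -0.33.

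How the 10 genes varied together was examined with the genotype means removed, over all 45 pairs and 12 lungs. After Benjamini-Hochberg adjustment, 13 pairs passed 0.05 by both Pearson's r and Spearman's rho (permutation tests within genotype, 100000 resamples), and they fell into 2 sets. All 10 pairs among Fkbp5, Sgk1, Anxa1, Mt1 and Mt2 passed, with r from 0.67 to 0.96 (permutation adjusted p from 0.00247 to 0.0432). The 3 pairs among Tsc22d3, Dusp1 and Hsd11b1 passed as well, with r from 0.75 to 0.90 (permutation adjusted p from 0.00247 to 0.0405). Without the 2 lungs farthest from the median, r lay between 0.58 and 0.90 in the larger set and between 0.86 and 0.91 in the smaller.

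The closest pair was Mt1 and Mt2, with r = 0.96 and rho = 0.95 (permutation adjusted p = 0.00247 and 0.00945, n = 12). Within genotypes r was 0.73 in controls and 0.99 in the IL-10 B-KO group (exact p = 0.0597 and 0.00278, n = 6 each), and it was 0.90 over the 10 lungs left without IL-10 B-KO replicates 3 and 5. Tsc22d3 and Dusp1 followed at r = 0.90 and rho = 0.90 (permutation adjusted p = 0.00247 and 0.00945). Between the sets 0 of 15 pairs passed, with r from -0.08 for Tsc22d3 and Sgk1 (rho = -0.01, permutation adjusted p = 0.981 and 0.974) to 0.63 for Dusp1 and Mt1 (rho = 0.50, permutation adjusted p = 0.106 and 0.319). The sets were less distinct within single genotypes. Dusp1 and Mt1 had r = 0.86 and rho = 0.49 in the IL-10 B-KO group (exact p = 0.0556 and 0.356, n = 6), while Fkbp5 and Mt1, of the same set, had r = 0.30 and rho = 0.26 in controls (exact p = 0.528 and 0.658, n = 6). Whether correlations differed between the genotypes was not tested. Nr3c1 and Zbtb16 had no pair that passed. The highest r of Nr3c1 with any of the others was 0.42, with Zbtb16.

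**Figure D4:**
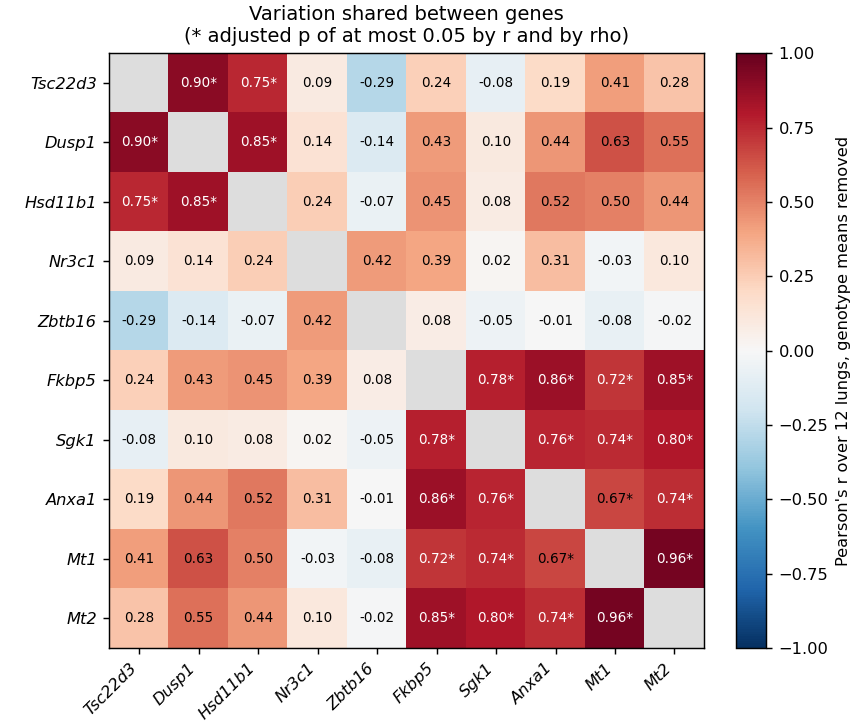
Pearson's r between the genes over 12 lungs after removal of genotype means from log2(TPM + 1), coloured from -1 (blue) to 1 (red). Asterisks mark the 13 of 45 pairs that passed an adjusted p of 0.05 by r and rho, which form 1 block of Tsc22d3, Dusp1 and Hsd11b1 and 1 block of Fkbp5, Sgk1, Anxa1, Mt1 and Mt2.

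Markers of infiltrating cells and of the lung's own cells were compared between the genotypes. Summed neutrophil markers (S100a8, S100a9, Csf3r, Cxcr2, Ly6g, Retnlg and Mmp8) were 275.6 to 2479 TPM (median 739) in controls, against 1041 to 7527 TPM (median 3205) in the IL-10 B-KO group, and all 7 markers were higher in IL-10 B-KO at an unadjusted limma p of at most 0.05, with 0 past the threshold. IL-10 B-KO replicate 5 had the highest sum, followed by replicate 6 at 4972 TPM and replicate 3 at 4420 TPM. Summed macrophage and monocyte markers were 88.2 to 1718 TPM in controls, against 207 to 1867 TPM in the IL-10 B-KO group. At an unadjusted p of at most 0.05, 5 of 8 were higher, where 6.83% of all genes tested were higher. None of these markers was at 0 in all lungs of a genotype. All 6 B cell markers were lower in IL-10 B-KO at an unadjusted limma p of at most 0.05, with 1 past the threshold. Their median log2 fold change was -2.45, and 5.71% of all genes tested were lower at that p. Markers of the lung's own cells lay in both directions. All 6 endothelial markers had negative log2 fold changes, 1 of them with an unadjusted p of at most 0.05, and summed to 1328 to 2598 TPM in controls, against 1316 to 2334 TPM in the IL-10 B-KO group. All 6 pericyte and smooth muscle markers were negative too, 4 of them with an unadjusted p of at most 0.05 and 1, Pdgfrb, past the threshold, and summed to 245.7 to 948 TPM in controls, against 104 to 504 TPM in the IL-10 B-KO group. Fibroblast markers had 3 positive and 3 negative values (median -0.04) and summed to 189 to 712 TPM in controls, against 100.9 to 948 TPM in the IL-10 B-KO group. All 3 tested mesothelial markers were higher at an unadjusted p of at most 0.05 (median 1.20), and so were 4 of 6 alveolar type 2 markers (median 0.92). All 5 erythroid markers had negative values (median -1.29), 0 of them with an unadjusted limma p of at most 0.05, and summed to 2958 to 96325 TPM in controls, against 3523 to 22583 TPM in the IL-10 B-KO group. The part of these cells in the levels of the 10 genes was not tested.

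Across the 12 lungs with genotype means removed, in 10 relations added after the data were seen, the neutrophil sum was related to Anxa1, Sgk1, Mt2, Fkbp5 and Mt1. Pearson's r was 0.89, 0.89, 0.83, 0.80 and 0.78 in that order (permutation adjusted p from 0.00230 to 0.0110), with rho from 0.79 to 0.94 (permutation adjusted p from 0.00120 to 0.0126). Without control replicate 1 and IL-10 B-KO replicate 5, the lungs farthest from the median, r was between 0.69 and 0.86. The other 5 genes had r between 0.02 and 0.34 (permutation adjusted p from 0.492 to 0.964). No correlation was computed with the sums of other cell markers, so that the relation is not shown to be particular to neutrophils. The macrophage and monocyte sum was also highest in replicate 1 among controls (1718 TPM) and in replicate 5 among IL-10 B-KO lungs (1867 TPM). The part of neutrophils or of other cells in the levels of the 10 genes was not tested.

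For each of the 10 genes, the tested gene with the most similar pattern was taken by the highest r of genotype-centred log2(TPM + 1) over the 12 lungs, as a description with no p. For Anxa1 it was Anxa2 (r = 0.99), for Sgk1 the arginase gene Arg1 (0.98), and for Mt1 and Mt2 alike it was Rtn4rl2 (0.95 and 0.98). Arg1 spanned 0.61 to 183 TPM in controls, against 0.62 to 808 TPM in the IL-10 B-KO group. Tsc22d3 and Dusp1 also had the same nearest gene, Arl4a (0.91 each). The nearest to Fkbp5 was Glg1 (0.97), to Nr3c1 Chst3 (0.95), to Hsd11b1 Ech1 (0.92) and to Zbtb16 the processed pseudogene Gm16285 (0.86). Chst3 spanned 1.72 to 20.8 TPM in controls, against 0.64 to 3.02 TPM in the IL-10 B-KO group. Gm16285 was low, at 0.56 to 2.92 TPM in controls and 0 to 5.03 TPM in the IL-10 B-KO group. How far these r rest on single lungs was not tested.

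The wider pathway was read from lists of genes with known roles. Of 25 other genes that glucocorticoids are known to induce, all tested, 0 passed the threshold, and the median log2 fold change was 0.18. At an unadjusted p of at most 0.05, where 12.5% of all genes tested differed, 4 of the 25 did so, 2 in each direction. The decoy receptor Il1r2 was at 0.85 to 36.6 TPM in controls, against 4.46 to 121 TPM in the IL-10 B-KO group, a log2 fold change of 2.38 (limma adjusted p = 0.292), and the cell cycle inhibitor Cdkn1a had a log2 fold change of 0.70. The lower genes were the cell cycle inhibitor Cdkn1c, at -0.75, and the transcription factor Foxo1, at -0.48. Foxo1 had 5 of 6 IL-10 B-KO lungs under the lowest control, with means of 9.98 ± 3.66 and 6.62 ± 0.638 TPM (SD, n = 6 each, two-sided exact permutation p = 0.00433). That p is not adjusted over genes, and no gene of the 25 had a limma adjusted p under 0.292.

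Genes that glucocorticoids are known to repress, mostly cytokines and chemokines, were listed as well. All 15 tested of these 18 had a positive log2 fold change, with a median of 1.24, although 0 passed the threshold. At an unadjusted p of at most 0.05, where 12.5% of all genes tested differed, 2 of the 15 did so. These were the chemokine Ccl2, at 0.95 to 107 TPM in controls, against 2.67 to 258 TPM in the IL-10 B-KO group, with a log2 fold change of 2.43, and the protease Mmp9, with 1.26. Close relatives of the 10 genes had a median log2 fold change of 0.14 over 13 of 14 tested, and 0 differed at an unadjusted p of at most 0.05 or passed the threshold in limma. Among these, Zbtb7b and the phosphatase Dusp6 had the lowest unadjusted p of the higher genes, with log2 fold changes of 0.70 and 0.64, and Tsc22d1 and Dusp4 of the lower genes, with -0.37 and -0.33.

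**Figure D5:**
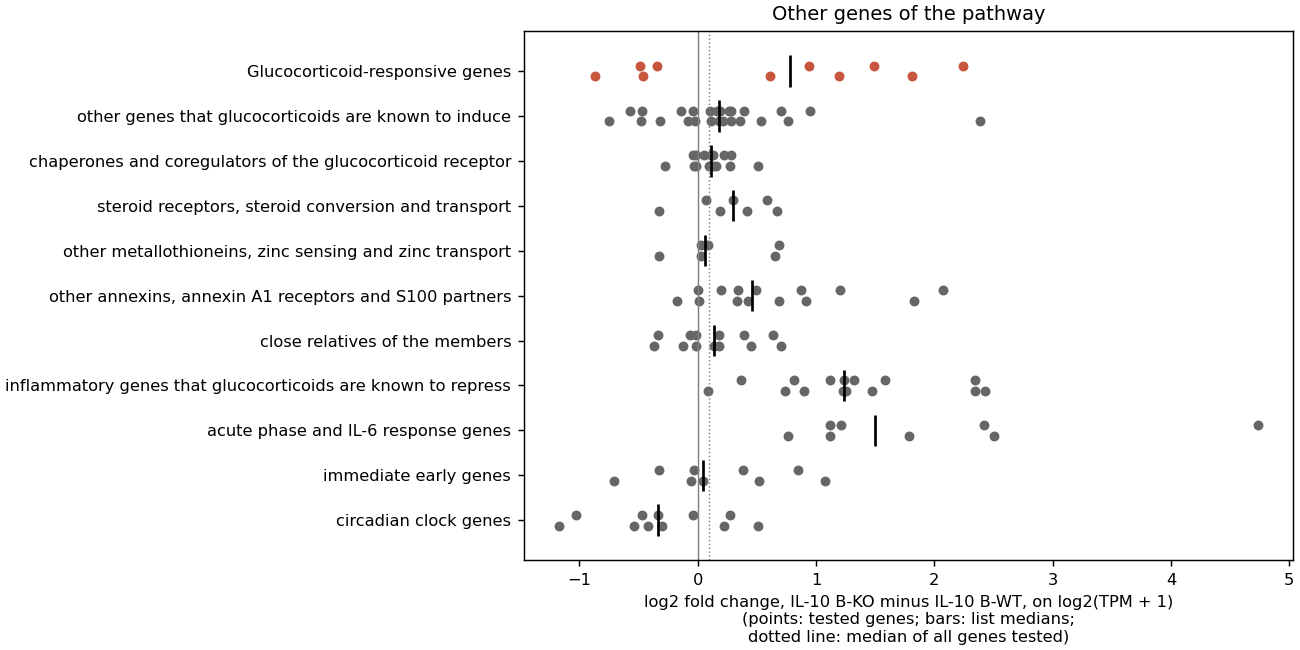
Log2 fold changes (IL-10 B-KO minus IL-10 B-WT, log2(TPM + 1) scale) of the tested genes in the 10 glucocorticoid-responsive genes (red) and in 10 lists of related genes (grey), with bars at the medians and a dotted line at the median of all genes (0.10). The genes that glucocorticoids repress and the acute phase genes have the highest medians (1.24 and 1.49), and the clock genes the lowest (-0.33).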

How the data were processed

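The authors deposited TPM per gene, calculated with RSEM, 1 column per lung and without pooling. The submitters' processing notes also name fastp, HISAT and GRCm38.p5, with no versions. All 12 columns were used and 0 remained unused. TPM keep no depth, so that precision rests on the spread between 6 lungs.

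Genotypes were compared with limma 3.58.1 in R 4.3.3 (lmFit, eBayes with a trend) on log2(TPM + 1), over 15148 genes that reached 1 TPM in 6 or more libraries, first tested on simulated data. Fold changes on this scale understate those of low genes. Exact permutation tests covered all 924 arrangements of mean log2(TPM + 1). The alternatives were another pseudocount, filters, scalings, weights, thresholds, a replicate block and left-out lungs. Python 3.11.15 with SciPy 1.17.1 gave the rest. Coordinates are from GENCODE release M21 on GRCm38.

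The 10 genes and all lists were chosen with earlier results of these data known. Beside the 10 genes, the text names, by rule, up to 2 genes per list and direction with the lowest unadjusted p, the most similar gene of each, and Il10, Cd79a and markers.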

Additional observations from a re-analysis of the deposited data

Results flagged for a closer look

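In 20 groups of 6 lungs, each of the 10 genes in each genotype, the highest or lowest lung was compared with its nearest neighbour by Dixon's ratio at its 95% critical value. Chance exceeds this in about 1 in 20 groups, and 2 lungs exceeded it. Sgk1 in IL-10 B-WT replicate 1 was at 159 TPM, where the gap to the next lung was 0.72 of the whole range, and the other 5 controls were at 55.9 to 74.9 TPM. The same lung held the highest Fkbp5, Anxa1, Mt1 and Mt2 of the controls and the highest summed neutrophil markers among them. Nr3c1 in IL-10 B-WT replicate 2 was at 30.6 TPM, a gap of 0.67 of the range, with the other 5 controls at 21.2 to 23.9 TPM. This lung had the largest immunoglobulin share, 15.4% of its TPM, and its part in the level of Nr3c1 was not tested. Without it the IL-10 B-WT group was still above every IL-10 B-KO lung.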

How the results depend on the processing

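None of the 10 genes changed direction in any of 22 alternatives each. The count of the 10 past the threshold moved from 0 to 2 with array quality weights (Fkbp5 and Hsd11b1), to 2 without IL-10 B-WT replicate 1 (Fkbp5 and Anxa1) and to 7 at an unadjusted p, and was 0 to 2 over single lungs left out. Hsd11b1 had a log2 fold change of -1.14 with array quality weights (limma adjusted p = 0.00712). In the lists of related genes, 0 moved to 2 with array weights, 10 without IL-10 B-WT replicate 1, 1 without IL-10 B-KO replicate 2 (0 to 10 over single lungs left out) and 22 at an unadjusted p. Over all genes, 75 moved to 6 with no filter, 27 without immunoglobulin genes, 39 with quantile normalization, 36 with median centring, 318 with array weights and 1899 at an unadjusted p. It was 15 to 576 over single lungs left out, lowest without IL-10 B-KO replicate 5 and highest without IL-10 B-WT replicate 1. Alternatives chosen after seeing the data gave 4 without IL-10 B-KO replicates 3 and 5 and 42 without replicates 2 and 6, with 0 of the 10 genes past the threshold in either. The causes were not tested. With the replicate number as a block, 45 of all genes and 0 of the 10 passed. Same-numbered lungs had correlations of deviations from -0.29 to 0.05, so that the numbers did not pair the lungs. Median centring, quantile normalization and scaling without immunoglobulin genes moved the median log2 fold change of all genes from 0.10 to -0.01, 0.01 and 0.05, and the directions of the 10 held in each. With no depth in TPM, no counting error can be given.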

Other observations

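Genes of the acute phase response, which cytokines such as IL-6 drive and glucocorticoids often support, had the highest median among the 10 lists of related genes. All 8 tested had a positive log2 fold change, with a median of 1.49, and 5 differed at an unadjusted p of at most 0.05, while 0 passed the threshold. Of all genes tested, 12.5% differed at that p, and 6.83% were higher. The serum amyloid gene Saa3 was at 4.48 to 6884 TPM in IL-10 B-WT and 34.8 to 8685 TPM in IL-10 B-KO lungs, which gave a log2 fold change of 4.74 with a standard error of 1.75 (limma adjusted p = 0.328). Its highest control was replicate 1, at 6884 TPM, where the other 5 controls were at 440 TPM or less. Lcn2, which encodes an iron-scavenging protein of neutrophils and epithelium, had a log2 fold change of 2.51.

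Immediate early genes, which stress and tissue handling can induce within minutes, had a median log2 fold change of 0.05 over 9 genes, with 5 positive and 4 negative. At an unadjusted p of at most 0.05, 1 was higher (Fos) and 2 were lower (Jun and Nr4a1), where 12.5% of all genes differed. Fos was at 1.07, Junb at 0.85, Jun at -0.32 and Nr4a1 at -0.71 on the log2 fold change scale, and 0 of the list passed the threshold. Clock genes, which follow the hour of the day as corticosterone does, had a median of -0.33 over 11 genes, 1 of which differed at an unadjusted p of at most 0.05. This was Nr1d1, at 21.8 to 90.6 TPM in IL-10 B-WT and 15.2 to 72.3 TPM in IL-10 B-KO lungs (log2 fold change -1.17, limma adjusted p = 0.311). Its lowest control was again replicate 1. The hour at which the lungs were taken was not given, and its part in the levels of the 10 genes was not tested.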
